A study of Bos taurus with 12 samples.

Results

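The expression of 9 genes known from senescence and cell cycle arrest was followed in the endometrium of ageing cows. These members were the cyclin-dependent kinase inhibitors CDKN1A, CDKN1B, CDKN1C, CDKN2A, CDKN2B and CDKN2C, and MDM2, RB1 and LMNB1. They were chosen by their symbol in the array annotation, and all 9 were found among the 17724 gene symbols of the array. Each was represented by 1 transcript of the 26323, and the 9 transcripts carried 24 probes of the 61333. Biopsies of the endometrium between the caruncles, from the uterine horn on the side of the corpus luteum, had been taken on Day 15 of the oestrous cycle from 4 old females (OF), aged 13 to 14 years and nulliparous, and 4 young females (YF), aged 4 to 5 years and primiparous. All OF and YF were clones of 1 Holstein cow, so that they share a genotype, and age and parity cannot be told apart in them. Another group held 3 contemporary cows, whose age and origin are not given in the sources used here. A further contemporary cow, animal 1111, had been left out by the authors for a divergent phenotype, and her values are given apart. Each animal had its own array in 1 colour (Cy-3), and the animal is the replicate.

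In a dividing cell, D-type and E-type cyclins drive their kinases to phosphorylate RB, the product of RB1, which then releases the E2F factors. The INK4 proteins p16 (CDKN2A), p15 (CDKN2B) and p18 (CDKN2C) bind CDK4 and CDK6 and keep them from the D-type cyclins, whereas the Cip/Kip proteins p21 (CDKN1A), p27 (CDKN1B) and p57 (CDKN1C) bind complexes of cyclins with their kinases. p21 is a target of p53, and MDM2, another p53 target, marks p53 for degradation. Senescent cells, which have left the cell cycle for good, are known for high p16 or p21 and for the loss of lamin B1 (LMNB1), a protein of the nuclear lamina. In the uterus the Cip/Kip and INK4 inhibitors are also known to change with progesterone and decidualization, apart from any senescence.

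Levels are log2 processed intensities relative to the 75th percentile of the array, so that 0 is that percentile and a difference of 1 is a doubling. They compare animals for 1 gene and not genes with each other. The 75th percentile ranged from 967.5 to 1596.7 over the 12 arrays, and 0 spots were saturated. The Feature Extraction software's flag for signal well above background was set for 71.5% to 74.9% of an array's probes. The arrays lay on 2 slides, the first with 1 OF, 2 YF and cow 1111, the second with 3 OF, 2 YF and the 3 contemporary cows. The array of OF 2258 stood apart from the others by its cell type markers. The summed log2 level of 12 smooth muscle genes was 10.05 in OF 2258 and 8.54 in OF 0234, against 4.62 to 6.07 in all other animals including cow 1111, and that of 11 epithelial genes was 3.93 in OF 2258 against 4.70 to 6.81 in all others. In a biopsy, fewer cells of a type and less RNA per cell cannot be told apart.

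For 7 of the 9 members, the exceptions being CDKN2A and LMNB1, a probe carried this flag on all arrays of at least 1 of the 2 groups, and these 7 were tested for OF against YF with limma, among 19755 transcripts. None of the 7 passed a Benjamini-Hochberg adjusted p of 0.05, where 0% of all transcripts did, and none reached an unadjusted p of 0.05, where 2.42% of all transcripts did. The 4 OF overlapped the 4 YF for each of the 7, and the groups were apart for 1.53% of all transcripts. The fold change rank ordering statistics (FCROS), the test of the study's methods, were coded here from their published description. FCROS called none of the 9 members, where it called 4.94% of all 26323 transcripts. It scales the ranks on their spread over all transcripts, so its limits largely set in advance how large that share can be. CDKN1C, with a fold change of 1.54, and CDKN2C, with 1.65, passed its limit on the fold change and not that on the rank.

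**Figure D1:**
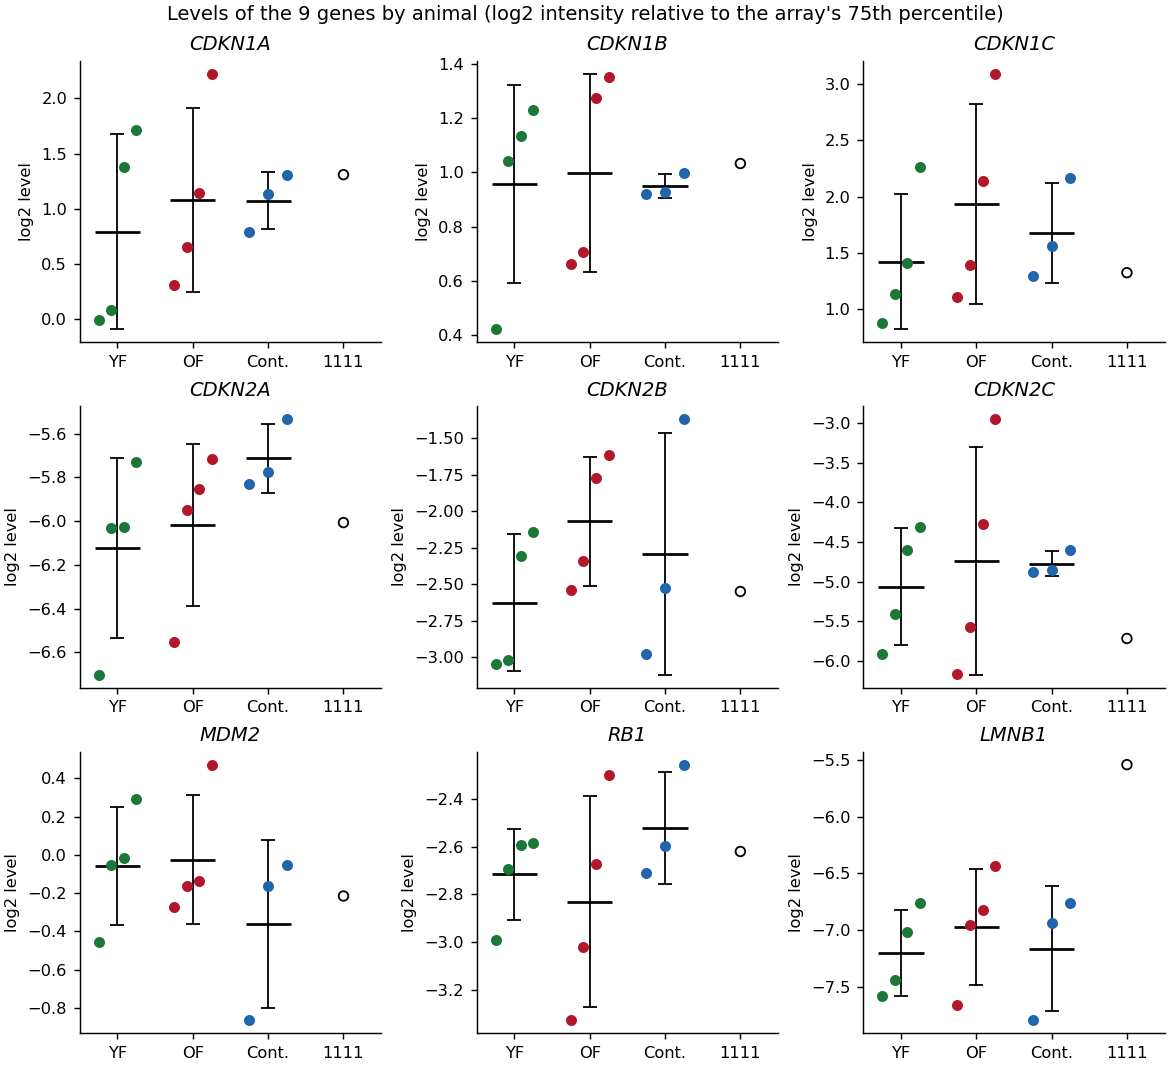
Each panel shows 1 gene, with the log2 level relative to the array's 75th percentile on the vertical axis; points are animals, lines and bars the group mean ± SD (n = 4 YF, 4 OF, 3 contemporary cows), and the open circle is cow 1111. OF and YF overlap in every panel, and the highest OF value of CDKN1A, CDKN1B, CDKN1C, CDKN2C and RB1 is that of 1 animal, 2258.

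The lowest unadjusted p among the 7 was that of CDKN2B (0.092), and its probes differed from each other. CDKN2B (ENSBTAT00000002652; chromosome 8, 22114512 to 22119419 in UMD 3.1, the build of the array annotation) had 2 probe sequences of 60 bases, each printed on the array under 2 names. The last 30 bases of both are shown because the OF were apart from the YF on the first sequence and not on the second; capitals mark the hexamer AATAAA, the most common signal for the addition of the poly(A) tail.
CDKN2B sequence 1: agaaaaatatacatgttaatttctgtgtct
CDKN2B sequence 2: cttcactgcaagatctggaagtaaAATAAA

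Sequence 2 ended with the hexamer, at bases 55 to 60, and sequence 1 did not hold it. Of the 50922 different probe sequences of the array, searched on the strand printed, 7.97% held AATAAA anywhere and 0.175% ended with it. Among the 18 sequences of the members, 3 held it, the others being the second sequence of CDKN1A, at base 33, and the second of LMNB1, at base 23. Both CDKN2B sequences had the same GC content, 35%. A stretch of 20 bases shared with a probe of another transcript was found for none of the CDKN2B sequences, and among the members only for the second sequence of MDM2, which shared one with a probe of ZNF227.

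On sequence 1, the OF had CDKN2B levels of -0.47 (0233), -1.02 (0234), -0.32 (0245) and -0.29 (2258). The YF had -2.39 (1069), -1.33 (1070), -1.31 (1072) and -1.39 (1127). The contemporary cows lay at -1.36 (1068), -1.54 (1128) and -1.11 (1129), and cow 1111 at -1.97. All 4 OF thus lay above the 8 other arrays. OF averaged -0.53 ± 0.34 (SD, n = 4), YF averaged -1.61 ± 0.53 (SD, n = 4), and the contemporary cows averaged -1.34 ± 0.22 (SD, n = 3).

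The log2 difference of sequence 1 between OF and YF was 1.08 with a standard error of 0.29 (95% interval 0.42 to 1.73), with the 4 OF above the 4 YF. Its exact two-sided permutation p was 0.0286, the smallest that 4 animals against 4 allow. Sequence 1 was picked out of the 18 sequences of the members after its values were seen, and this p does not allow for that choice. With every sequence of every transcript as a row of its own, limma gave it an unadjusted p of 0.0051 and a Benjamini-Hochberg adjusted p of 0.9995 over 36104 sequences, so the difference did not pass the correction. Over those sequences, 2.33% had an unadjusted p under 0.05, every OF lay above every YF for 0.853%, and every OF lay above every YF and every contemporary cow for 0.28%. Within slide 1, with 1 OF and 2 YF, the difference was 1.002, and within slide 2, with 3 OF and 2 YF, it was 1.29. When each animal was left out in turn it ranged from 0.82 (without YF 1069) to 1.24 (without OF 0234), and it was 0.53 with array weights, which let arrays that fit less well count for less. The part of the smooth muscle signal in this difference was not tested.

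Against OF, the contemporary cows were lower on sequence 1 by a log2 difference of -0.81 with a standard error of 0.23, with all 3 below all 4 OF (exact two-sided permutation p = 0.0571, limma unadjusted p = 0.0093, adjusted p = 0.895). Every contemporary cow lay below every OF for 2.73% of the sequences tested in that comparison. Against YF the contemporary cows differed by 0.27 with a standard error of 0.30 (95% interval -0.41 to 0.95). The 3 comparisons share their animals, so they are not independent of each other.

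On sequence 2 of CDKN2B, the OF had -3.08 (0233), -3.66 (0234), -2.91 (0245) and -4.79 (2258). The YF had -3.70 (1069), -2.95 (1070), -3.30 (1072) and -4.65 (1127), so that the ranges of the groups nearly coincided. In the contemporary cows the level was -3.70 in 1068, -1.20 in 1128 and -4.85 in 1129, so that cow 1128 was the highest and cow 1129 the lowest of all 12 arrays, and cow 1111 lay at -3.13. The difference between OF and YF was 0.04 with a standard error of 0.49 (95% interval -1.07 to 1.15). Both sequences carried the flag for signal well above background on all 12 arrays.

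**Figure D2:**
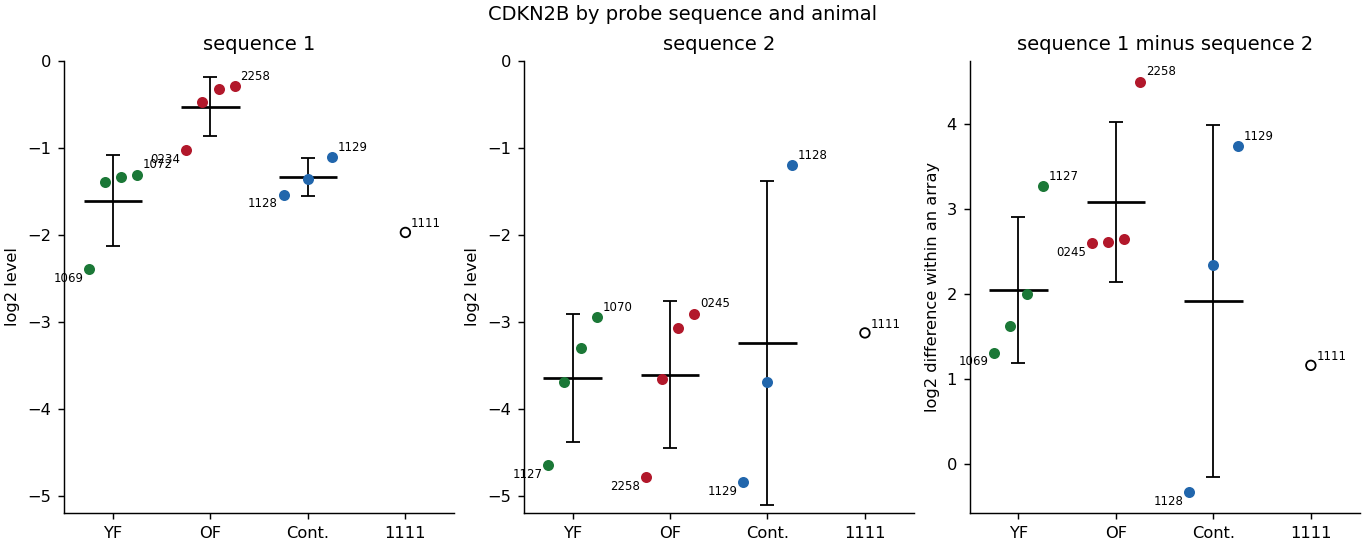
The log2 level of CDKN2B relative to the array's 75th percentile is shown for probe sequence 1 (left) and sequence 2 (middle), and the difference between them within each array on the right; points are animals, with the number of the highest and the lowest of each group, lines and bars group means ± SD, and the open circle is cow 1111. The 4 OF sit between -1.02 and -0.29 on sequence 1, above the 8 other arrays, whereas on sequence 2 they sit between -4.79 and -2.91, inside the range of the others.

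The distance between the 2 sequences changed more from array to array than did that between copies of the same sequence. The 2 names of the same sequence differed by at most 0.19 on any array for sequence 1 and by at most 0.39 for sequence 2. Sequence 1 minus sequence 2 ranged from -0.34 in cow 1128 to 4.50 in OF 2258, with an SD of 1.28 over the 12 arrays. For the 6 other members tested in OF against YF this SD was between 0.06 (CDKN1A) and 0.25 (CDKN2C). Of the 16018 transcripts with 2 tested sequences, 0.256% had an SD as large as that of CDKN2B, and 0.4% had as large a gap between their 2 differences of OF and YF, which was 1.04 for CDKN2B against a median of 0.06. The difference between the sequences was itself not apart between the groups, at 3.08 in OF and 2.04 in YF on average (exact two-sided permutation p = 0.2, n = 4 each).

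**Figure D3:**
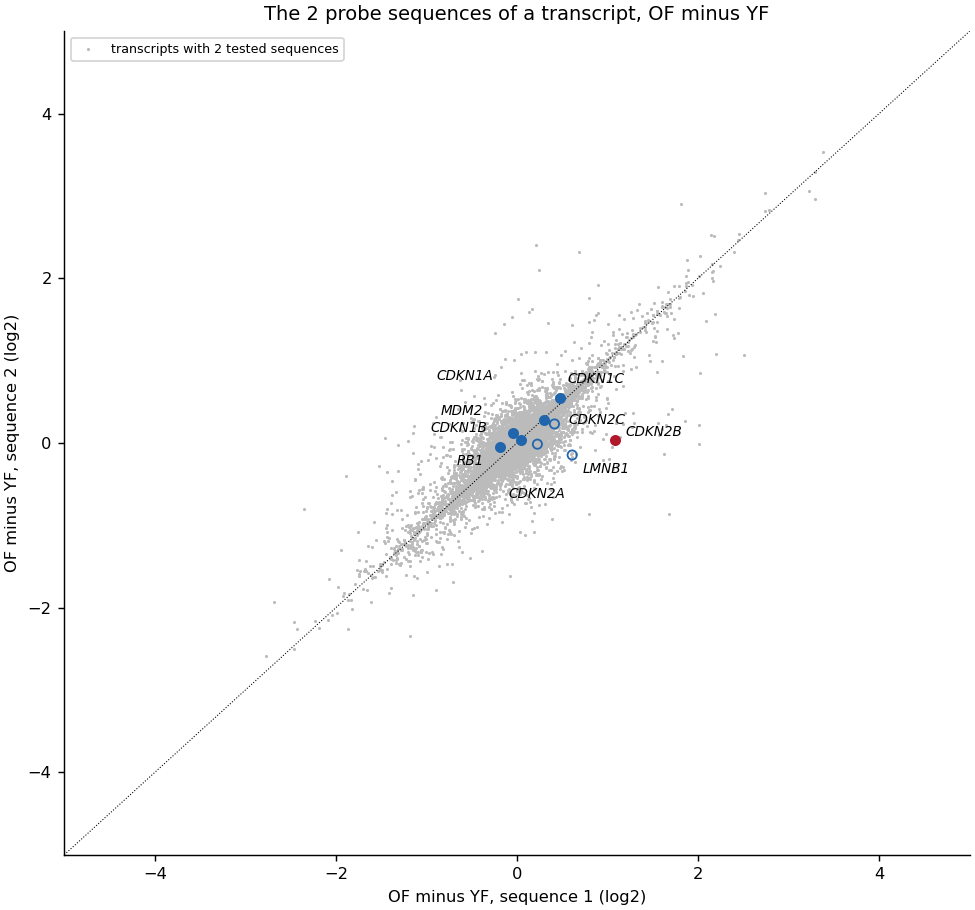
Each point is a transcript with 2 probe sequences, with the log2 difference of OF minus YF on sequence 1 (horizontal) against that on sequence 2 (vertical); grey points are the 16018 transcripts with both sequences tested (which of their sequences is drawn on which axis is arbitrary), coloured points are the members, open where a sequence was not tested, and the dotted line marks equal differences. CDKN2B, in red, lies at 1.08 on sequence 1 and 0.04 on sequence 2, away from the line along which the other tested members lie.

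As the mean of its probes, CDKN2B averaged -2.07 ± 0.44 in OF against -2.63 ± 0.47 in YF (SD over 4 animals each), a difference of 0.56 with a standard error of 0.29 (95% interval -0.11 to 1.23; limma adjusted p = 0.999). The contemporary cows lay at -2.29 ± 0.83 (SD, n = 3), and the 3 groups overlapped. In FCROS its f-value was 0.98, on the side of higher levels in OF and past the limit of 0.025 from 1, and its fold change from arithmetic means was 1.47, short of the 1.5 required. CDKN2B was called when a fold change of 1.3 sufficed, and also without OF 0234 (1.57), OF 2258 (1.61), YF 1070 (1.66) or YF 1072 (1.57), runs that called 1498, 1328, 1190, 1271 and 1555 of the 26323 transcripts. Its f-value fell short of the limit with no trimming (0.972) and without OF 0233 (0.916), OF 0245 (0.915), YF 1069 (0.927) or YF 1127 (0.96). The transcript's value thus joins a sequence on which OF were higher and one on which they were not.

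CDKN2A, the gene of p16, lay close to background. Its transcript (ENSBTAT00000055845; chromosome 8, 22147414 to 22151549 in UMD 3.1) had 2 probes, which are 1 base apart on the gene. Their first 30 bases are shown to make this plain, with the bases that both probes read in capitals.
CDKN2A sequence 1: gTCCGGCAGAAGAGAAAGTTGGACTCGGAG
CDKN2A sequence 2: TCCGGCAGAAGAGAAAGTTGGACTCGGAGC

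The probes share 59 of their 60 bases. Even so, sequence 1 was well above background on 2 YF, 3 OF and 3 contemporary arrays and sequence 2 on 3 YF, 2 OF and 3 contemporary arrays, and their difference ranged from -0.33 to 1.14 over the 12 arrays. The SD of that difference was 0.42, although the probes read all but 1 of the same bases. CDKN2A passed the filter only through the contemporary arrays and so was not tested between OF and YF. Its level averaged -6.02 ± 0.37 in OF against -6.12 ± 0.41 in YF (SD over 4 animals each), and the values of the 2 groups interleaved, with -6.70 (1072) the lowest and -5.71 (0233) the highest. The contemporary cows lay at -5.71 ± 0.16 (SD, n = 3). Since they let CDKN2A through the filter and were the highest group, no test of their difference is read here.

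CDKN2C, the gene of p18 (ENSBTAT00000014685; chromosome 3, 95924172 to 95928574), had a wider range between animals than any other tested member. The OF lay at -2.95 (2258), -4.27 (0234), -5.58 (0233) and -6.17 (0245), so that they held both the highest and the lowest of the 12 values. Its sequence 1 was well above background on 10 of the 12 arrays and its sequence 2 on 11, each on 3 of the 4 OF arrays, so that the lowest values are near background. The YF lay between -5.92 (1127) and -4.32 (1069), the contemporary cows between -4.88 and -4.60, and cow 1111 at -5.72. The difference between OF and YF was 0.32 with a standard error of 0.69 (95% interval -1.26 to 1.90), and it was -0.28 without OF 2258 and 0.80 without OF 0245. With probes well above background alone it was 0.21. It was -1.16 within slide 1 and 0.85 within slide 2. OF 2258 and OF 0234, with the highest CDKN2C of the OF, were the animals with the highest summed smooth muscle level, and the part of smooth muscle in these values was not tested.

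Among the Cip/Kip genes, CDKN1A (ENSBTAT00000011001; chromosome 23, 10560499 to 10568780) split the YF. It was at -0.01 in YF 1069 and 0.08 in YF 1072, but at 1.71 in YF 1070 and 1.38 in YF 1127. The OF lay at 0.31 (0234), 0.65 (0233), 1.15 (0245) and 2.22 (2258), and the contemporary cows at 0.79, 1.13 and 1.31, within the range of the YF. The 2 YF with high levels were on different slides, as were the 2 with low levels. The difference between OF and YF was 0.29 with a standard error of 0.52 (95% interval -0.91 to 1.49), and it was -0.09 without OF 2258 and 0.60 without YF 1070. FCROS called it without YF 1070 (f-value 0.977, fold change 1.56, 1271 of all 26323 transcripts called), whereas its f-value was 0.417 without YF 1069, 0.44 without YF 1072 and 0.436 without OF 2258. Both probe sequences gave the same picture, with differences of 0.30 and 0.28.

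CDKN1C (ENSBTAT00000044159; chromosome 29, 49368787 to 49370785), an imprinted gene whose product p57 restrains growth, was at 3.09 (2258), 2.14 (0234), 1.40 (0245) and 1.11 (0233) in the old animals. In YF it was at 2.26 (1069), 1.41 (1070), 1.14 (1072) and 0.88 (1127). The mean of 1.93 ± 0.88 in OF exceeded that of 1.42 ± 0.60 in YF (SD, n = 4 each) by 0.51 with a standard error of 0.46, which was within the spread between animals (limma adjusted p = 0.999). Without OF 2258 the difference was 0.13. The contemporary cows, at 1.68 ± 0.44 (SD, n = 3), lay between the group means. As for CDKN2C, the 2 highest OF were the 2 with the most smooth muscle signal, whose part was not tested.

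CDKN1B (ENSBTAT00000024297; chromosome 5, 97577140 to 97582322) was the steadiest of the 3. It lay between 0.66 and 1.35 in OF, between 0.42 and 1.23 in YF and between 0.92 and 0.9994 in the contemporary cows. The difference between OF and YF was 0.04 with a standard error of 0.24, with a 95% interval of -0.52 to 0.60.

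MDM2 (ENSBTAT00000045265; chromosome 5, 45178135 to 45203567) lay between -0.27 and 0.47 in OF and between -0.46 and 0.29 in YF, a difference of 0.03 with a standard error of 0.22 (95% interval -0.47 to 0.54). Its lowest value, -0.86, was that of contemporary cow 1129. RB1 (ENSBTAT00000008728; chromosome 12, 18196465 to 18316589) lay between -3.33 and -2.30 in OF, between -2.99 and -2.59 in YF and between -2.71 and -2.26 in the contemporary cows. Its difference of -0.12 between OF and YF had a standard error of 0.23 (95% interval -0.64 to 0.41), and it was 0.05 without OF 0245.

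LMNB1 (ENSBTAT00000052423; chromosome 7, 28414756 to 28465352) was not tested in any comparison. Its sequence 1 was well above background on 0 of the 11 arrays of the 3 groups and on that of cow 1111 alone, and its sequence 2 on 3 YF, 2 OF and 2 contemporary arrays. The averages were -6.97 ± 0.51 for OF, -7.20 ± 0.38 for YF (SD over 4 animals each) and -7.16 ± 0.55 (SD, n = 3) for the contemporary cows, and the 3 groups overlapped. Cow 1111 lay at -5.54, above all of them.

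**Figure D4:**
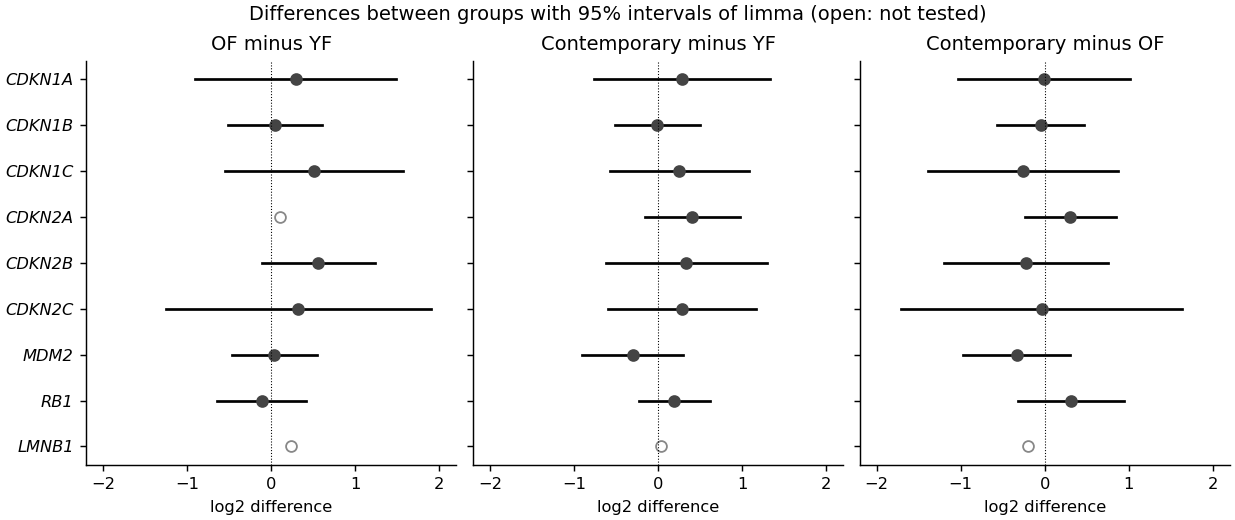
Log2 differences of the 9 members between OF and YF (left), contemporary cows and YF (middle) and contemporary cows and OF (right); points are differences of group means, lines are 95% intervals of limma, and open points were not tested. Every interval crosses 0, and in OF minus YF that of CDKN2C, -1.26 to 1.90, is the widest; CDKN2A entered the comparisons of the contemporary cows through their arrays alone.

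In neither comparison of the contemporary cows did a member pass the test. Of the 8 members tested in each of these comparisons, 0 passed an adjusted p of 0.05 in limma, as did 0% of the transcripts, and 0 reached an unadjusted p of 0.05, where 3.03% of transcripts did against YF and 4.57% against OF. CDKN2A was among the 8 through the contemporary arrays alone. For the 7 others, the differences against YF ran from -0.30 (MDM2) to 0.34 (CDKN2B), and those against OF from -0.34 (MDM2) to 0.31 (RB1).

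The genes around the members were read as lists of their pathway partners. Of the 9 genes for G1 cyclins, their kinases and CDKN2D, all were tested between OF and YF, and 1 had an unadjusted p under 0.05 in limma, as did 2.42% of all transcripts: CCNE2, a cyclin E that drives entry into DNA replication. It averaged -5.88 ± 0.59 in OF against -4.90 ± 0.56 in YF (SD over 4 animals each), a difference of -0.98 with a standard error of 0.36. OF 0233, at -5.14, lay above YF 1070 and 1072. A probe was flagged as well above background on 4 YF arrays and on 3 of the 4 OF arrays. CCNE2 thus passed the filter only through YF, the higher group, and its p is not read as a result. The contemporary cows averaged -4.83 ± 0.19 (SD, n = 3). Against OF, CCNE2 passed the filter through their arrays alone, and no test of that difference is read here. The median of the list was 0.20, against 0.01 over all transcripts, and 0.02 without OF 2258. Among 9 RB relatives and E2F factors tested, 0 reached that p. The largest differences were those of E2F1 (0.43, standard error 0.20) and RBL1 (-0.26, standard error 0.37), and the median was 0.01.

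Of 10 regulators of p53, p53 included, 1 had an unadjusted limma p under 0.05, where 2.42% of all transcripts did. It was HIPK2, a kinase that acts on p53 (0.50, standard error 0.22, unadjusted limma p = 0.047, exact permutation p = 0.0857). The median of the list was 0.07. Of 16 p53 target genes tested, 0 had such a p, and the median was -0.03. The widest differences were those of BTG2 (1.65, standard error 1.03), an early response gene that slows the cell cycle and which was at 5.14 in OF 2258 and between -0.58 and 3.22 in the other animals of the 3 groups, and ZMAT3 (-0.53, standard error 0.37).

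Of 11 genes of the turnover and the FOXO control of the Cip/Kip inhibitors, 1 had an unadjusted limma p under 0.05. Over all transcripts 2.42% had one. The gene was FOXO1, a factor known to activate CDKN1B and to act in decidualizing stroma. The OF lay at 0.60 (0233), 0.71 (0234), 0.59 (0245) and 1.59 (2258) and the YF at -0.21 (1069), 0.51 (1070), 0.26 (1072) and -0.05 (1127), so that all OF lay above all YF. The difference was 0.74 with a standard error of 0.27 (unadjusted limma p = 0.023, adjusted p = 0.999, exact two-sided permutation p = 0.0286 for 4 against 4). It was 0.20 within slide 1 and 1.09 within slide 2, and OF and YF were apart for 1.53% of all transcripts. Contemporary cow 1128, at 0.81, exceeded 3 of the OF. The median of that list was 0.14, and 9 of the 11 were higher in OF, where 51.7% of all tested transcripts were. Without OF 2258 the median was 0.18 and 7 of the 11 were higher.

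Of 22 Polycomb genes and other regulators of the locus that holds CDKN2A and CDKN2B, 1 had an unadjusted limma p under 0.05. Over all transcripts 2.42% had one. The gene was JARID2, a partner of the Polycomb complex that lays down repressive histone marks. It was at 1.3 (0233), 3.01 (0234), 2.55 (0245) and 1.46 (2258) in OF, at 0.46 to 1.64 in YF and at 0.36 to 0.86 in the contemporary cows. The difference from YF was 1.202 with a standard error of 0.43 (unadjusted limma p = 0.022, exact permutation p = 0.0857), with the OF overlapping YF 1072. Contemporary minus OF was -1.44 with a standard error of 0.44 (limma adjusted p = 0.912, exact permutation p = 0.0857). The median of the list was -0.03, and 10 of the 22 were higher in OF, where 51.7% of all tested transcripts were.

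Of 10 genes of the nuclear lamina and the inner nuclear membrane, 0 had an unadjusted p under 0.05 between OF and YF. ZMPSTE24, the protease that matures lamin A, differed by -0.31 (standard error 0.19) and LMNA by 0.31 (standard error 0.27), and the median was 0.07. Of 25 tested genes for secreted factors of senescent cells, 2 reached that p, which 2.42% of all transcripts did, both higher in OF: IGFBP3 (1.304, standard error 0.41, unadjusted limma p = 0.013, exact permutation p = 0.0571), a binding protein of insulin-like growth factors, and CXCL3 (1.53, standard error 0.60, unadjusted limma p = 0.032, exact permutation p = 0.0571), a chemokine for neutrophils. For IGFBP3, 0233, 0234 and 2258 lay above all YF and 0245, at 0.28, lay below YF 1069, at 0.31. For CXCL3, OF 2258 was the highest, at 4.76, and OF 0234, at 2.13, lay below YF 1070, at 2.96. Contemporary cow 1068 was at 4.31. The difference of CXCL3 between OF and YF was 0.80 within slide 1 and 2.21 within slide 2. The list had a median of 0.22 with 16 of 25 genes higher in OF, where 51.7% of all tested transcripts were. Without OF 2258 it had a median of -0.03 with 12 of 25 higher, so that its shift rests on that animal. In the contemporary cows, 23 of 26 tested genes of the list were higher than in YF, where 45.4% of all tested transcripts were. The median was 0.37 against -0.02 over all transcripts, and 2 had an unadjusted p under 0.05, both higher, where 3.03% of all transcripts reached it. The shift was not particular to this list. In the same comparison 9 of 9 G1 genes, 8 of 8 endothelial and 8 of 8 leukocyte genes were higher, against 3 of 11 of the turnover and FOXO list. No gene of any of these lists passed an adjusted p of 0.05 in limma.

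**Figure D5:**
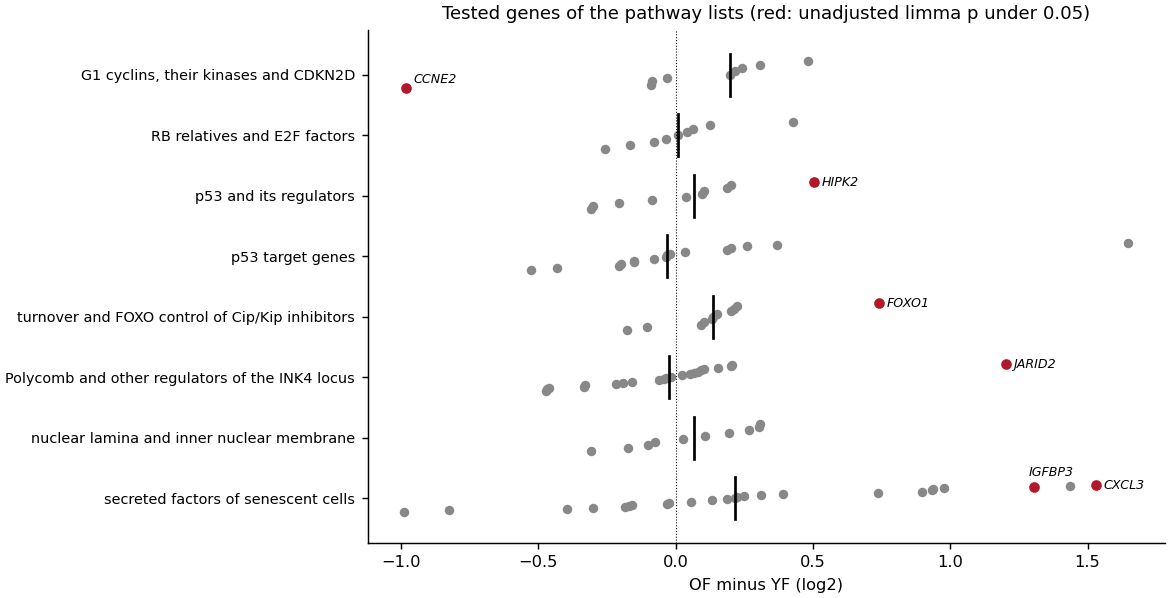
Log2 differences of OF minus YF (horizontal axis) for the tested genes of 8 lists of pathway partners; each point is a gene, red and named where its unadjusted limma p was under 0.05, and the black bars are list medians; a gene's height within its list carries no value. The medians lie between -0.03 and 0.22, against 0.01 over all transcripts, and 6 genes are named. Of these, CCNE2 passed the filter through the YF arrays alone. Without OF 2258 the median of the G1 list is 0.02 and that of the secreted factors -0.03.

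Over all tested transcripts 51.7% were higher in OF, with a median of 0.01. Of 20 tested proliferation genes, 5 were higher in OF, with a median of -0.17. An unadjusted limma p under 0.05 was reached by 1 of them, lower in OF, and by 2.42% of all transcripts. Their summed level was 3.71 in OF 2258 and between 4.24 and 4.64 in the 11 other animals, and the median was -0.05 without OF 2258. All 12 smooth muscle genes were higher in OF, with a median of 1.95, and 1.07 without OF 2258. Of them 1 had an unadjusted limma p under 0.05, where 2.42% of all transcripts did. Their summed level was high in OF 2258 (10.05) and OF 0234 (8.54). In OF 0233 (4.70) and OF 0245 (5.79) it lay within the range of the YF, 4.62 to 6.07. None of the 10 stromal genes was higher in OF, at a median of -0.27. Of 8 endothelial genes 7 were higher (median 0.20) and of 8 leukocyte genes 5 (median 0.16). Of 10 epithelial genes 3 were higher in OF, with a median of -0.21, and without OF 2258 all 10 were, with a median of 0.34. The part of these lists in the members' values was not tested.

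The transcripts whose levels ran most closely with a member over the 11 arrays of the 3 groups were named by the highest Pearson correlation. Each array shares its 75th percentile and its cell mixture between all transcripts, and the values are given as a description. They are the highest among all tested transcripts on few arrays, so high values follow in part from the choice itself. For CDKN1A they were TUBB4B (r = 0.953), a beta tubulin, and DYRK3 (0.911). For CDKN1B they were UPF3A (0.988), of nonsense-mediated decay, and IKZF5 (0.954), and for CDKN1C an RNA annotated as snoU109 (0.976) and MVK (0.972), an enzyme of the mevalonate pathway. The closest to CDKN2C were 2 transcripts of LTBP1 (0.974 and 0.972), a matrix protein that binds latent TGF-beta. For MDM2 they were MKL2 (0.966) and KPNA6 (0.918), and for RB1 BRN (0.924) and ZNHIT6 (0.917). When the 2 arrays farthest from the member's median were left out, r was between 0.821 and 0.984 for these, other than KPNA6, at 0.644. The arrays kept were among those used for the choice, so these values are no check of it. For CDKN2B, whose value joins 2 unlike sequences, they were KDM2A (0.915) and ZNRF3 (0.911).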

How the data were processed

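Total RNA of 12 biopsies was hybridized to custom bovine arrays in 1 colour. The authors deposited, for each spot, the processed intensity of Feature Extraction 10.7.3.1, corrected for background and not normalized between arrays, with other signals: gMeanSignal and gBGMedianSignal intensity and flags for spots well above background. From it, log2 was taken and the array's 75th percentile subtracted. Left out were 1319 controls and, for their outlier flags, 66 probes. Spots of a probe, then probes of a transcript, were averaged. Transcripts of which at least 1 probe was flagged as well above background throughout 1 of the 2 groups entered limma (version 3.58.1, under R 4.3.3: lmFit and eBayes, two-sided, Benjamini-Hochberg adjustment over all transcripts), with only the arrays of the 2 groups in a fit. FCROS was coded from its published description, with a share of 0.25 of the ranks trimmed at each end, f-values within 0.025 of 0 or 1 and a fold change of 1.5. Both were tested on simulated data. Exact permutation tests used the difference of means over animals. Samples were grouped by the labels. The number of arrays, 1 for each animal, limits the precision.

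Symbols were those of the array annotation. Named genes are all members, of each pathway list those with an unadjusted p under 0.05 between OF and YF or else the 2 with the largest difference, and the 2 transcripts most like each tested member; the transcript of highest mean signal stands for a gene. Members, lists and tests were chosen with earlier results of these data known. Alternatives were quantile normalization, median centring, normexp with an offset of 50, the brightest probe, each probe on its own, no filter, array weights, a block for the slide, a joint fit of the 3 groups, cow 1111 included and each animal left out. Chosen after seeing the data were the fit of single probe sequences, the average over probes well above background alone, and the lists without OF 2258. Probe positions within a transcript were not analysed here.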

Additional observations from a re-analysis of the deposited data

Results flagged for a closer look

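Of the 22 groups of 4 animals examined for the members and for the CDKN2B sequences, 1 held an animal far from the other 3. On sequence 1 of CDKN2B, YF 1069 was at -2.39, whereas the other YF lay between -1.39 and -1.31. The limit set for such a distance is passed by chance in about 1 in 20 such groups. Without YF 1069 the difference between OF and YF on this sequence was 0.82. Since every OF lay above every YF, leaving an animal out could not make the groups overlap.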

How the results depend on the processing

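The count of members past an adjusted limma p of 0.05 was 0 under every alternative run. On sequence 1 of CDKN2B, OF were higher than YF by 0.53 to 1.19 under the 7 other settings run for it. The 8 runs with an animal left out could not reverse that sign, as every OF lay above every YF. Over all transcripts, the count past an adjusted p of 0.05 for contemporary cows against YF was 1 with quantile normalization, 2 with the 3 groups in 1 fit, 1 with array weights and 4 with cow 1111, and 0 to 1 with an animal left out. Against OF it was 26 with array weights, 2 with cow 1111, and 0 to 1 with an animal left out. For OF against YF the count at an unadjusted p under 0.05 was 478, and it was 2175 with array weights, 767 with the slide as a block and 959 without OF 0233 (386 to 562 with another animal left out). For contemporary cows against YF it was 606, and 1312 with array weights, 988 without cow 1068 and 911 without YF 1069. Against OF it was 911, and 3252 with array weights and 1721 without cow 1068. With probes well above background alone, OF against YF gave 500. FCROS as coded here called 1300 transcripts, 565 at a fold change of 2 and 545 after normexp. These calls are not the study's own list of differentially expressed genes. Small differences changed sign. With array weights, OF minus YF became -0.33 for CDKN1A, -0.14 for CDKN1B, -0.22 for MDM2, 0.031 for RB1 and -0.18 for sequence 2 of CDKN2B. Contemporary minus YF became 0.024 for CDKN1B, and contemporary minus OF 0.64 for CDKN1A, 0.13 for CDKN1B and 0.40 for CDKN2B. With the slide as a block, CDKN1B was at -0.044 (OF minus YF) and CDKN1A at 0.013 (contemporary minus OF). In contemporary minus OF, CDKN1A was at 0.020 after median centring, 0.0288 by its brightest probe and 0.051 with cow 1111, and CDKN2C at 0.038 after quantile normalization. In contemporary minus YF, CDKN1B was at 0.035 after median centring and 0.0125 with cow 1111. By single probes, MDM2 was at -0.048 (OF minus YF), CDKN1B at 0.0083 (contemporary minus YF), and in contemporary minus OF CDKN1A was at 0.0288, CDKN2B at 0.38 and 0.34, and CDKN2C at 0.12 and 0.0068. With an animal left out, OF minus YF ranged from -0.088 to 0.60 for CDKN1A, -0.14 to 0.15 for CDKN1B, -0.28 to 0.80 for CDKN2C, -0.13 to 0.15 for MDM2, -0.29 to 0.05 for RB1 and -0.29 to 0.43 for sequence 2 of CDKN2B. Contemporary minus YF ranged from -0.19 to 0.083 for CDKN1B, -0.13 to 0.68 for CDKN2B and -0.62 to 1.20 for its sequence 2. Contemporary minus OF ranged from -0.26 to 0.37 for CDKN1A, -0.16 to 0.068 for CDKN1B, -0.53 to 0.13 for CDKN1C, -0.68 to 0.12 for CDKN2B, -0.66 to 1.16 for its sequence 2 and -0.51 to 0.56 for CDKN2C. The cause was not tested.

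No paired analysis was possible because the replicate numbers are those of the animals and no number is shared between groups. CDKN2A and LMNB1 were near background, CDKN2C was so on 1 or 2 of the 12 arrays by sequence, and the others are limited by 3 or 4 animals in a group.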
